A study of Mus musculus with 8 samples.

Results

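Chemokines and their receptors were examined in 8 primary mouse osteosarcomas, malignant tumours of bone-forming cells. The genes were chosen by name: 33 symbols, of 16 CC ligands, 10 CXC and CX3C ligands and 7 receptors, each represented by the probe set with a single gene symbol and the highest mean. All 33 were measured, of 19938 genes in all. The rule uses no measured value, but the list was drawn up with earlier results of these data known. Tumours arose in C57Bl6 mice of 2 models. In the shRNA OS model (n = 4) p53 was targeted by the hairpin transgene P53.1224, and in the Cre:lox OS model (n = 4) p53 alleles were floxed (P53fl/fl). The shRNA OS tumours were 2 of the tibia with Rbfl/+ (tumours 1 and 3), 1 of the tibia with Rb+/+ (tumour 2) and 1 of the humerus with Rbfl/+ (tumour 4). The Cre:lox OS tumours were 1 of the scapula with Rb+/+ (tumour 1), 1 of the humerus with Rbfl/+ (tumour 2) and 2 of the tibia with Rbfl/+ (tumours 3 and 4). The cells in which hairpin or Cre is active, and the animals' age, are not named in the labels, and no tumour of wild-type p53 or normal bone was among the samples. The p53 transcript was not analysed here.

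Chemokines are small secreted proteins that guide migrating cells. They bind receptors with a bundle of membrane-spanning helices that signal through G proteins, and they are grouped as CC, CXC and CX3C by the spacing of their first cysteines. Ccl2, Ccl7 and Ccl12 act on Ccr2 and draw monocytes out of the marrow into tissue, Cxcl9 and Cxcl10 act on Cxcr3 of activated T and NK cells, and Cxcl12 holds blood stem cells and other Cxcr4-bearing cells in bone marrow. Several of these genes are switched on by NF-kappaB, which inflammatory signals activate, or by interferons.

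The RNA came from whole tumours, so fewer cells of a type and less RNA per cell cannot be told apart. Bone-forming cell genes were high in every tumour: Alpl (alkaline phosphatase of mineralising cells) ran from 12.18 to 13.19 and Ibsp (bone sialoprotein) from 12.91 to 13.52 on the deposited log2 scale. Array medians lay between 7.13 and 7.23. shRNA OS tumour 2 was the array least like the others: its correlation with them averaged 0.941, and that of each other array 0.961 to 0.968. Some results are also given without it, but the relations across tumours were not run without it. The labels name no batch, and the number of arrays limits the precision.

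Neighbouring chemokine genes are often copies of each other with similar promoters, and 4 promoters are shown from the clusters the results turn on, the monocyte attractants on chromosome 11 and the Cxcl9 and Cxcl10 pair on chromosome 5. RefSeq (GRCm38.p6) gave a start-site window for 24 of the 33 genes. The 250 bases before the start site are printed 5′ to 3′ on the gene's own strand. They are at chr11:82101595-82101844 (plus strand) for Ccl12, chr11:82114935-82115184 (plus strand) for Ccl8, chr5:92328080-92328329 (minus strand) for Cxcl9 and chr5:92348890-92349139 (minus strand) for Cxcl10. Capitals mark the TATA box letters TATAAA, the interferon-stimulated response element and the NF-kappaB consensus, each searched on both strands, and no matches overlap.
Ccl12: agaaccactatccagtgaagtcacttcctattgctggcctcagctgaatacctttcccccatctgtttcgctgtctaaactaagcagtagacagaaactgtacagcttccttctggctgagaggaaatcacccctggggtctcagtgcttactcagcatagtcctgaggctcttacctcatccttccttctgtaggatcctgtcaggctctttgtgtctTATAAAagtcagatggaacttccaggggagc
Ccl8: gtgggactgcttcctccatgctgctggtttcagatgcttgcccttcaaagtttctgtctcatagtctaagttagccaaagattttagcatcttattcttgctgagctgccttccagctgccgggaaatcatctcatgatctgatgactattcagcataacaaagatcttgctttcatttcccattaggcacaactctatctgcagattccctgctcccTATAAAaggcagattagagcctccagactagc
Cxcl9: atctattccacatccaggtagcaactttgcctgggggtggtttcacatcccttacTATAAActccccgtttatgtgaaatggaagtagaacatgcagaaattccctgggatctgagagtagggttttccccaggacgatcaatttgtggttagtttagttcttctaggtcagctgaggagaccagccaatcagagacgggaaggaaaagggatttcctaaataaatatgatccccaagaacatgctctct
Cxcl10: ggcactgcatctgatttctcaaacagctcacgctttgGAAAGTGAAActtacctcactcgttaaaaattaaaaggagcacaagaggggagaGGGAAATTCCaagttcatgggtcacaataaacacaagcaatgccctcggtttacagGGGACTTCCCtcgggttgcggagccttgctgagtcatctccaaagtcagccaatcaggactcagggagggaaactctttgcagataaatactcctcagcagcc
Ccl12 and Ccl8 each held a TATA box close to the start, ending 26 and 27 bases before it. In Cxcl9 these letters lay farther off, 195 to 190 bases before the start. Cxcl10 held the interferon element 213 to 204 bases before the start and an NF-kappaB match at 159 to 150 and at 103 to 94. Among 32851 windows of this length, 12.4% held the TATA box letters, 3% the interferon element and 3.9% the NF-kappaB consensus. Among the 24 genes with a window, these were found in 9, in 2 (Cxcl10 and Cxcl14) and in 5 (Ccl9, Ccl20, Cxcl1, Cxcl2 and Cxcl10). The hypoxia element ACGTG, in 16.6% of windows, was in Cxcl1. A match is a description of these letters only.

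Chemokine levels varied widely from tumour to tumour. The median SD over the 8 tumours was 0.66 (log2) for the 33 genes against 0.27 for all genes, and 19 of the 33 were among the 10 percent of genes with the highest SD. The range was widest for Cxcl13, which draws B cells, at 4.16. It was 3.64 for Ccl7, 3.41 for Ccl2 and 3.38 for Ccr2. At the other end Ccl4, a ligand of T-cell and macrophage receptors, spanned 0.21, and all its values lay between 6.22 and 6.43. Of the 33 genes, 16 had a mean level above that of the median gene. Signal over background was not analysed here.

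**Figure D1:**
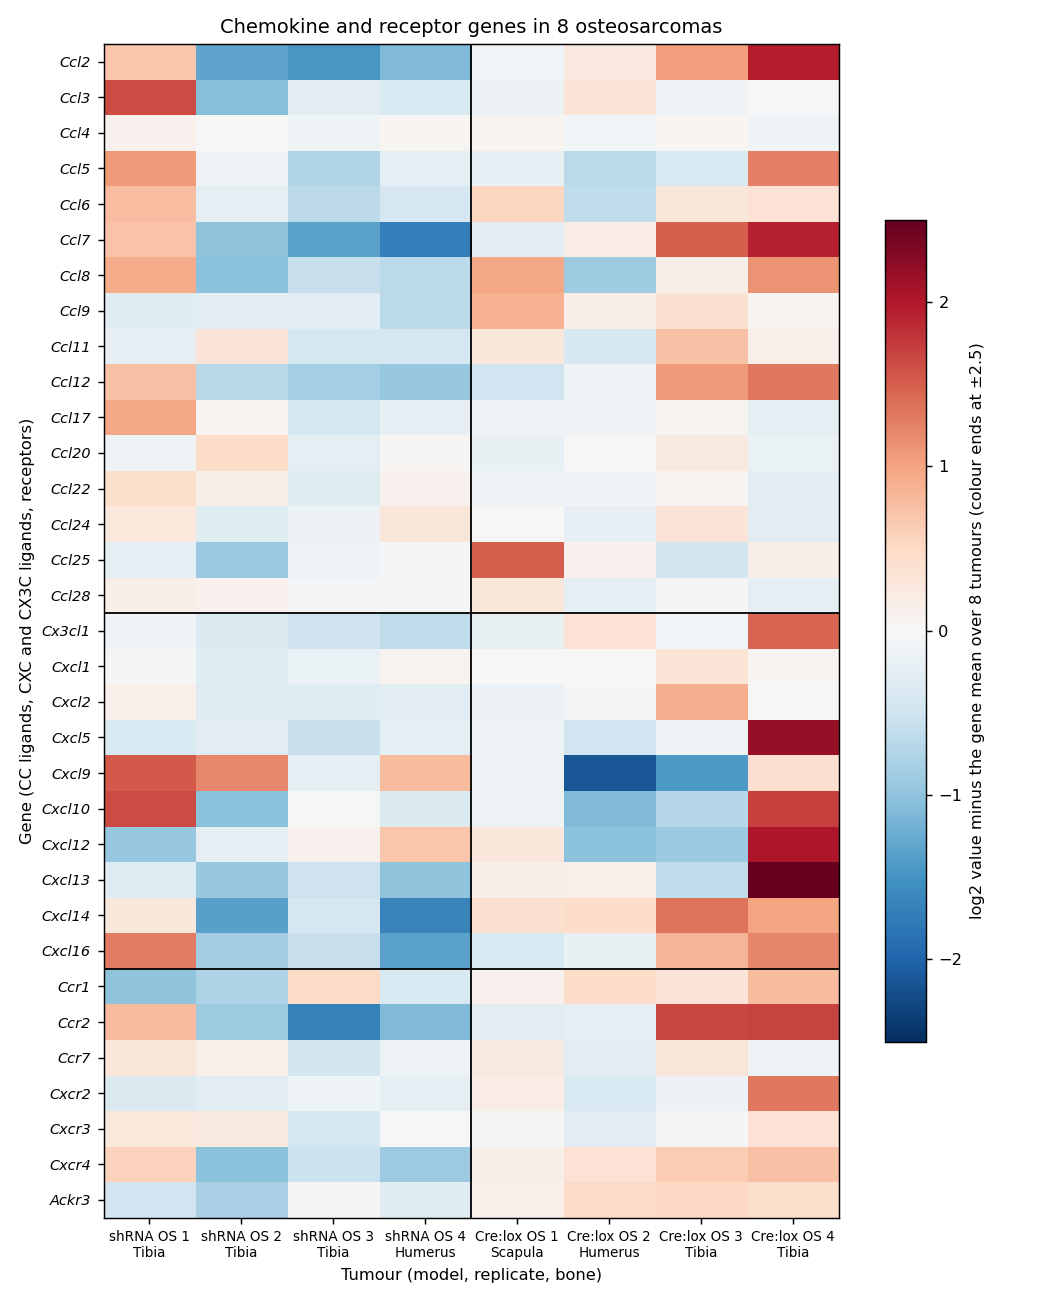
Deviation of each gene's log2 value (rows, by class) from its own mean over the 8 tumours (columns: 4 shRNA OS, then 4 Cre:lox OS, with bone site). The monocyte-attracting ligands Ccl2, Ccl7 and Ccl12 and their receptor Ccr2 were above their means in shRNA OS tumour 1 and Cre:lox OS tumours 3 and 4, and Cxcl13 was far above its mean in Cre:lox OS tumour 4 only.

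The comparison of models asks whether tumours that arise with a p53 hairpin differ from those that arise with floxed p53. The monocyte-attracting ligands Ccl2 and Ccl7, the ligand Cxcl14 and the receptors Ccr2, Cxcr4, Ccr1 and Ackr3 had lower means in shRNA OS, and the T-cell-attracting ligand Cxcl9 had a higher mean. None of the 33 passed an adjusted p of 0.05 (limma with Benjamini-Hochberg adjustment over all genes), which 0.0201% of all genes did (4 of 19938). Their smallest adjusted p was 0.236, for Ackr3. At an unadjusted p under 0.05, 9 of the 33 (27.3%) were lower in shRNA OS, against 6.02% of all genes. These were Ccl2, Ccl7, Ccl9, Cx3cl1, Cxcl14, Ccr1, Ccr2, Cxcr4 and Ackr3. Cxcl9 alone was higher at that level, against 3.61% of all genes. Means were lower in shRNA OS for 24 of the 33 (72.7%), against 48.1% of all genes, and the median difference was -0.38 (log2, shRNA OS minus Cre:lox OS) against 0.01 for all genes. It was -0.17 over the 16 CC ligands, -0.54 over the 10 CXC and CX3C ligands and -0.77 over the 7 receptors. Single tumours moved these values. The count of 9 was 5 without shRNA OS tumour 3 or without Cre:lox OS tumour 4, and 6 without shRNA OS tumour 2 or 4. The median was -0.57 without shRNA OS tumour 1 or Cre:lox OS tumour 2, and -0.23 without Cre:lox OS tumour 4 and over the 6 Rbfl/+ tumours.

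**Figure D2:**
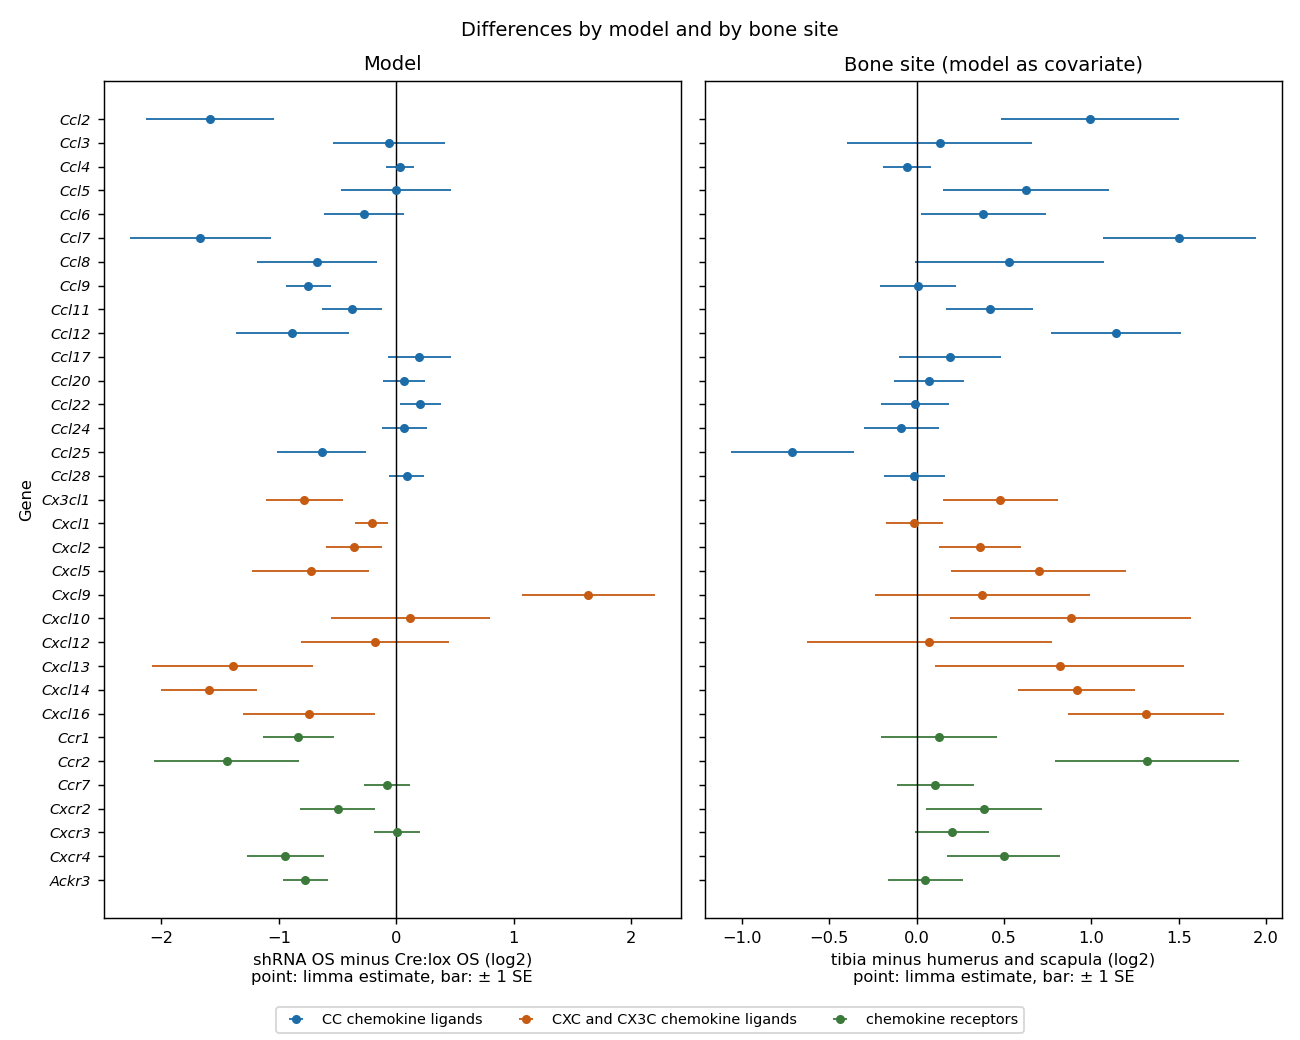
Difference of each of the 33 genes (log2, limma estimate with a bar of ± 1 SE), between models on the left (4 shRNA OS minus 4 Cre:lox OS) and between sites on the right (5 tibial minus 3 humerus or scapula tumours, with model as a covariate). On the left 24 points lie below 0 with Cxcl9 apart at 1.64, and on the right 27 lie above 0, with Ccl7 highest at 1.50.

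The groups did not overlap for 3 genes, all lower in shRNA OS (9.1% of the 33, against 3.44% of all genes).  The 3 were Ackr3, Ccl9 and Cxcl14. Ackr3 takes up and removes Cxcl12. Its log2 values were 6.94, 6.60, 7.44 and 7.10 in shRNA OS tumours 1 to 4 and 7.54, 7.88, 7.92 and 7.84 in Cre:lox OS tumours 1 to 4. All Cre:lox OS values were above all shRNA OS values, and the narrowest gap was between shRNA OS tumour 3 and Cre:lox OS tumour 1. The difference was -0.77 (SE 0.19), with a limma p of 0.00239 before adjustment.

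Ccl9 is a mouse ligand of Ccr1 that bone-resorbing cells make in quantity. Its values were 9.03, 9.05, 9.07 and 8.66 in shRNA OS and 10.19, 9.50, 9.72 and 9.41 in Cre:lox OS. The shRNA OS tumours lay close together except for the humeral tumour 4, and the scapular tumour was highest. The difference was -0.75 (SE 0.19, limma adjusted p = 0.239). The osteoclast marker mean was not ordered by model: it ran from 8.51 to 11.22 in shRNA OS and from 9.34 to 10.99 in Cre:lox OS. Its part in the difference was not tested.

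Cxcl14 is a ligand of epithelium and stroma that draws monocytes and dendritic cells. Its values were 9.18, 7.53, 8.46 and 7.23 in shRNA OS and 9.30, 9.36, 10.25 and 9.88 in Cre:lox OS. shRNA OS tumour 1 came close to the lowest Cre:lox OS tumour, and the others were well below. The difference was -1.59 (SE 0.41, limma adjusted p = 0.239), or 3.02-fold lower in shRNA OS. The adjusted p ranged from 0.0738 to 0.513 over the alternative settings, and every one of those kept the direction.

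Among CC ligands the largest model differences lay in the monocyte-attracting group on chromosome 11, where the RefSeq order is Ccl2, Ccl7, Ccl11, Ccl12 and Ccl8. Ccl2, the main monocyte attractant, was at 9.50, 7.49, 7.35 and 7.69 in shRNA OS and at 8.72, 9.04, 9.85 and 10.76 in Cre:lox OS. Ccl7, which shares its receptor, was at 9.55, 7.83, 7.51 and 7.13 in shRNA OS and at 8.57, 9.02, 10.33 and 10.77 in Cre:lox OS. In both genes shRNA OS tumours 2 to 4 were below every Cre:lox OS tumour, while shRNA OS tumour 1 lay among them. The differences were -1.59 (SE 0.55, limma adjusted p = 0.394) for Ccl2 and -1.67 (SE 0.60, limma adjusted p = 0.409) for Ccl7, or 3.01-fold and 3.18-fold lower in shRNA OS. Without shRNA OS tumour 1 they were -2.08 (limma adjusted p = 0.117) and -2.18 (limma adjusted p = 0.147). Without Cre:lox OS tumour 4 they were smaller, -1.20 (limma adjusted p = 0.601) and -1.30 (limma adjusted p = 0.629).

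The other members of the cluster went the same way with smaller differences. Ccl12, the mouse ligand most like Ccl2, was at 7.75, 6.32, 6.16 and 6.06 in shRNA OS and at 6.52, 6.91, 8.08 and 8.33 in Cre:lox OS. The difference was -0.88 (SE 0.48, limma adjusted p = 0.607), close in size to the SD within models (0.79 in shRNA OS, 0.88 in Cre:lox OS). Again shRNA OS tumour 1 lay among the Cre:lox OS tumours. Ccl8, another monocyte attractant, was at 7.81, 5.87, 6.31 and 6.22 in shRNA OS and at 7.86, 5.99, 7.03 and 8.01 in Cre:lox OS, and the groups overlapped. Ccl11 (eotaxin, an eosinophil attractant) was between 6.78 and 7.54 in shRNA OS and between 6.82 and 7.94 in Cre:lox OS. The mean was lower in shRNA OS for all 5 genes of the cluster. As these genes are similar in sequence, one transcript could bind another's probes, which was not analysed here.

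The second run on chromosome 11, Ccl5, Ccl9, Ccl6, Ccl3 and Ccl4, had no common pattern besides Ccl9. Ccl3, made by activated macrophages, was at 10.09, 7.40, 8.18 and 8.07 in shRNA OS and at 8.32, 8.80, 8.38 and 8.47 in Cre:lox OS. The highest and the lowest tumour were both shRNA OS, and the difference was -0.06 (SE 0.48). It was 0.29 without shRNA OS tumour 2, the lowest. Ccl5, a product of T cells and macrophages, was at 9.88, 8.75, 8.07 and 8.60 in shRNA OS and at 8.63, 8.16, 8.45 and 10.08 in Cre:lox OS. One tumour of each model, shRNA OS tumour 1 and Cre:lox OS tumour 4, was high and the other 6 lay together. Ccl6, a macrophage product, was at 9.22, 8.21, 7.80 and 8.03 in shRNA OS and at 8.99, 7.81, 8.75 and 8.81 in Cre:lox OS, with a difference of -0.27 (limma adjusted p = 0.871). The difference of Ccl4 was 0.03.

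The remaining CC ligands differed little between models. The ligands of dendritic cells and type 2 immunity, Ccl17, Ccl22 and Ccl24, differed by 0.20, 0.21 and 0.07, and the epithelial ligands Ccl20 and Ccl28 by 0.07 and 0.09, with limma adjusted p-values from 0.778 to 0.943. The difference of Ccl20 turned to -0.07 without shRNA OS tumour 2. Ccl17 was highest in shRNA OS tumour 1, at 7.45, and ran from 6.06 to 6.57 in the other 7. Ccl25, a thymus and gut ligand, was the exception in size. It was at 7.67, 6.97, 7.81 and 7.87 in shRNA OS and at 9.38, 8.01, 7.44 and 8.04 in Cre:lox OS. The scapular tumour, Cre:lox OS tumour 1, was the only high one, and without it the difference of -0.64 became -0.25. Ccl25 was also the only gene of the 33 with a second probe set. That one read 7.14, 6.81, 6.64 and 7.24 in shRNA OS. In Cre:lox OS it read 9.49, 7.63, 7.36 and 7.71, above every shRNA OS tumour, and its difference was -1.09.

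Cxcl9 went against the other large differences. It is an interferon-gamma target that attracts T and NK cells, and its values were 10.76, 10.45, 9.0 and 10.02 in shRNA OS and 9.11, 7.11, 7.80 and 9.66 in Cre:lox OS. shRNA OS tumours 1, 2 and 4 were above every Cre:lox OS tumour, and tumour 3 lay within their range. The difference was 1.64 (SE 0.57, limma adjusted p = 0.394), or 3.11-fold higher in shRNA OS, and 1.20 without Cre:lox OS tumour 2. Its chromosome 5 neighbour Cxcl10, which shares its receptor, did not show this order. Cxcl10 was at 10.84, 8.19, 9.23 and 8.85 in shRNA OS and at 9.09, 8.11, 8.50 and 10.94 in Cre:lox OS. shRNA OS tumour 1 and Cre:lox OS tumour 4 were the high ones, and the difference was 0.12 (SE 0.68). The direction was not stable: it was -0.40 without shRNA OS tumour 1 and 0.71 without Cre:lox OS tumour 4. The shared receptor Cxcr3 was between 6.49 and 7.18 in shRNA OS and between 6.63 and 7.29 in Cre:lox OS.

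Several CXC differences rested on Cre:lox OS tumour 4. Cxcl13 was at 7.19, 6.58, 7.01 and 6.52 in shRNA OS and at 7.66, 7.65, 6.88 and 10.68 in Cre:lox OS. The difference of -1.39 (SE 0.69, limma adjusted p = 0.562) became -0.57 without that tumour. Cxcl5, a neutrophil attractant, was at 5.27, 5.37, 5.07 and 5.40 in shRNA OS and at 5.52, 5.14, 5.55 and 7.81 in Cre:lox OS. Its other 7 values differed little, and its difference of -0.73 became -0.13 without that tumour. Cxcr2, its receptor on neutrophils, was between 4.50 and 5.06 in 7 tumours and at 6.19 in this one. The mean of the 12 neutrophil markers was 6.83 there and 6.57 to 6.73 in the others. Cx3cl1, membrane-bound fractalkine, was at 7.87, 7.64, 7.46 and 7.34 in shRNA OS and at 7.79, 8.33, 7.90 and 9.43 in Cre:lox OS. Its difference of -0.78 (SE 0.33, limma adjusted p = 0.480) became -0.43 without Cre:lox OS tumour 4.

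Cxcl12, the marrow retention factor, had a model difference smaller than its spread, -0.18 (SE 0.63, limma adjusted p = 0.956). It was at 7.46, 8.18, 8.51 and 9.10 in shRNA OS and at 8.69, 7.38, 7.47 and 10.43 in Cre:lox OS. Cre:lox OS tumour 4 was highest and tumour 2 of the same model lowest, and without tumour 4 the difference was 0.46. Cxcl16, a membrane-bound ligand made by macrophages that also binds oxidised lipid, was at 10.46, 8.29, 8.58 and 7.81 in shRNA OS and at 8.77, 8.97, 10.02 and 10.37 in Cre:lox OS. shRNA OS tumour 1 was the highest of all 8 and the other 3 were the lowest. The difference was -0.75 (SE 0.56) with that tumour and -1.30 (limma adjusted p = 0.242) without it. Over the alternative settings the Cxcl16 difference ran from -1.30 to -0.42. The neutrophil attractants Cxcl1 and Cxcl2 differed by -0.21 and -0.36.

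Of the 7 receptors, 6 had a lower mean in shRNA OS. Ccr2, which marks inflammatory monocytes, was at 8.25, 6.57, 5.77 and 6.34 in shRNA OS and at 7.19, 7.24, 9.12 and 9.15 in Cre:lox OS. As with Ccl2, shRNA OS tumours 2 to 4 were lowest, and shRNA OS tumour 1 lay among the Cre:lox OS tumours. The difference was -1.44 (SE 0.62, limma adjusted p = 0.495). Cxcr4, the Cxcl12 receptor, was at 9.14, 7.54, 8.03 and 7.65 in shRNA OS and at 8.71, 8.92, 9.20 and 9.29 in Cre:lox OS. The Cre:lox OS tumours lay between 8.71 and 9.29, and only shRNA OS tumour 1 reached into them. The difference was -0.94 (SE 0.33, limma adjusted p = 0.394), and -1.29 (limma adjusted p = 0.0515) without that tumour. Over the alternative settings the Cxcr4 difference ran from -1.29 to -0.76. Ccr1, a receptor of monocytes and osteoclast precursors, was at 6.59, 6.83, 8.07 and 7.22 in shRNA OS and at 7.70, 8.06, 7.91 and 8.38 in Cre:lox OS. Here shRNA OS tumour 3 was the one within the Cre:lox OS range, and the difference was -0.83 (SE 0.30, limma adjusted p = 0.410). Ccr7, which leads dendritic cells and T cells to lymph nodes, differed by -0.08, and Cxcr3 by 0.01.

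**Figure D3:**
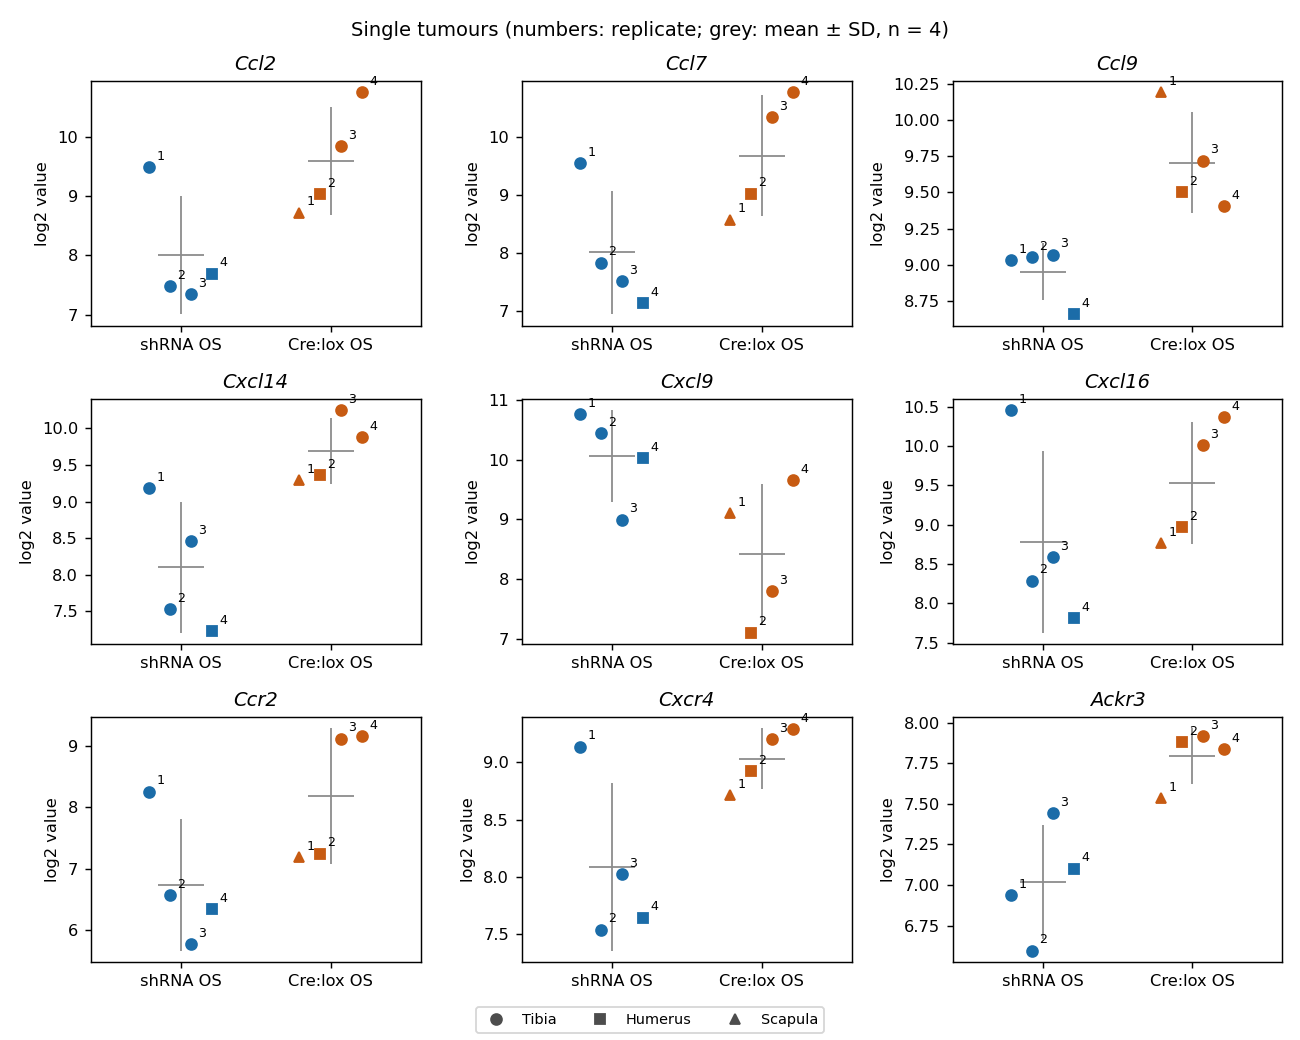
Log2 values of 9 chemokine and receptor genes in each tumour (points, numbered by replicate and shaped by bone site) with the mean ± SD of each model (grey, n = 4). Ccl9, Cxcl14 and Ackr3 do not overlap between models, while in Ccl2, Ccl7, Ccr2 and Cxcr4 shRNA OS tumour 1 lies among the Cre:lox OS tumours.

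Because 3 of the shRNA OS and 2 of the Cre:lox OS tumours were tibial, the model differences were also read within sites. Among the 5 tibial tumours the differences were -2.20 for Ccl2, -2.25 for Ccl7, -2.27 for Ccr2 and -1.67 for Cxcl14. Among the other 3 they were -1.19, -1.67, -0.87 and -2.09. Each of these kept its direction at both sites, as did Cxcl9 with 1.34 and 1.91 and Ackr3 with -0.88 and -0.61. All 6 were among the larger pooled differences, so a kept direction is not independent support. No adjusted limma p was under 0.05 for these 6 genes in the tibial tumours alone. Cxcl12 turned, from -0.90 in tibial tumours to 1.06 in the others, where single tumours stand for a model. Cxcl5 turned from -1.44 to 0.07. Ccl3, Ccl5, Ccl17, Ccl24, Ccl28, Cxcl1, Cxcl10 and Cxcr3 also changed direction between sites.

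Markers of some other cell types also had mostly lower means in shRNA OS, against 48.1% of all genes. The 13 measured macrophage markers all had a lower mean in shRNA OS, with a median difference of -0.84, and their mean level ran from 8.90 to 10.57 in shRNA OS and from 9.60 to 10.91 in Cre:lox OS. Of the 9 fibroblast markers 7 had a lower mean in shRNA OS (median -0.91), and their mean level ran from 8.54 to 9.46 and from 9.41 to 10.69. All 9 skeletal muscle markers also had a lower mean in shRNA OS (median -0.69), and their mean level ran from 7.36 to 10.63 and from 7.89 to 10.39. Other lists went the other way, with a higher mean in shRNA OS for 7 of 7 B cell and 7 of 8 endothelial markers. The mean was also higher for 9 of 12 neutrophil, 8 of 13 T and NK cell and 5 of 8 dendritic cell markers. The same held for 6 of 8 osteoclast and 5 of 7 osteoblast markers. Median differences of these lists lay between 0.04 and 0.17. Of 5 erythroid and platelet markers 3 had a lower mean. No marker of any list passed an adjusted limma p of 0.05. Their part in the chemokine differences was not tested.

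The comparison of sites set the 5 tibial tumours against the 3 of the humerus or scapula, with the model as a covariate. Ccl7, Ccl12 and Ccr2, of the monocyte-attracting axis, and Cxcl16 and Cxcl14 had fitted differences above 0 with an unadjusted limma p under 0.05. None of the 33 passed the adjusted threshold, which 0% of all genes passed. At an unadjusted p under 0.05 these 5 (15.2% of the 33) were higher in tibial tumours, against 2.32% of all genes. None was lower at that level, against 3.33% of all genes. The fitted difference was above 0 for 27 of the 33 (81.8%), against 44.5% of all genes, with a median of 0.38 against -0.03. For none of the 33 did the sites fail to overlap, as they did for 2.60% of all genes. The count of 5 was 0 without the covariate, 3 without shRNA OS tumour 4 and 7 without shRNA OS tumour 2. The median was 0.19 without Cre:lox OS tumour 2, 0.15 without Cre:lox OS tumour 4 and 0.23 without the covariate.

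Ccl7 had a mean of 9.20 ± 1.47 (SD, n = 5) in tibial and 8.24 ± 0.99 (SD, n = 3) in other tumours. The fitted difference was 1.50 (SE 0.44, limma adjusted p = 0.691), and within models it was 1.17 in shRNA OS and 1.76 in Cre:lox OS. Cxcl16 was at 9.54 ± 1.03 (SD, n = 5) and 8.52 ± 0.62 (SD, n = 3), with a difference of 1.31 (SE 0.45, limma adjusted p = 0.758) and 1.30 and 1.32 within models. Ccl12 differed by 1.14 (SE 0.37, limma adjusted p = 0.719), Ccr2 by 1.32 (SE 0.53, limma adjusted p = 0.836) and Cxcl14 by 0.92 (SE 0.34, limma adjusted p = 0.798). In all of them the highest tumours were tibial and other tibial tumours were among the low ones. Ackr3 and Ccl9, which separated the models, differed by 0.05 and 0.01 between sites. Ccl25 had the lowest fitted value, -0.71 (SE 0.35), and -0.33 without the scapular tumour. The macrophage markers were higher in tibial tumours for 12 of 13 (median 1.19), with a mean level from 9.40 to 10.91 against 8.90 to 10.01. The fibroblast markers were higher for 7 of 9 (median 0.80) and the skeletal muscle markers for 9 of 9 (median 0.75). The osteoclast markers were lower for 8 of 8 (median -1.12) and the osteoblast markers for 7 of 7 (median -0.34). The part of these cell types in the chemokine differences was not tested.

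Single tumours differed more plainly than groups. Cre:lox OS tumour 4 had the highest value of all 8 for 15 of the 33 genes, when it was highest for 13.2% of all genes. It was above a gene's mean for 26 of the 33 and for 38.5% of all genes. Cre:lox OS tumour 3 was highest for 7 of the 33 (21.2%, against 12.8% of all genes) and above the mean for 22 (66.7%, against 56.7%). shRNA OS tumour 1 was also highest for 7 (21.2%, against 10.9%) and above the mean for 21 (63.6%, against 51.2%). The other 3 of its model were above the mean for 8, 4 and 7 of the 33, or 24.2%, 12.1% and 21.2%, when they were so for 46.5%, 40.5% and 53.7% of all genes. shRNA OS tumour 3, of the same site and Rb genotype as tumour 1, was lowest for 13 of the 33 (39.4%, against 12.5%). shRNA OS tumour 4 was lowest for 7 (21.2%, against 7.8%) and Cre:lox OS tumour 2 for 5 (15.2%, against 9.1%). shRNA OS tumour 2 was lowest for 7 as well, but its 21.2% was no more than its share over all genes, 23.2%.

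Ligands of the monocyte axis followed their receptor across tumours. Over the 8 tumours Pearson's r between Ccl2 and Ccr2 was 0.958 (exact permutation p = 0.000397, adjusted 0.00972) and Spearman's rho 0.976 (exact permutation p = 0.000397, adjusted 0.0194). For Ccl7 and Ccr2, r was 0.969 (exact permutation p = 0.000322, adjusted 0.00948) and rho 0.976 (exact permutation p = 0.000397, adjusted 0.0194). For Ccl12 and Ccr2, r was 0.974 (exact permutation p = 0.000198, adjusted 0.00729) and rho again 0.976. Without the 2 tumours farthest from the median, r was 0.929, 0.982 and 0.930, and with the model means taken out 0.937, 0.954 and 0.970. The relation was thus as close with model means removed and did not rest on those 2 tumours. All tests were 2-sided, and p-values were adjusted over 147 relations, 15 of gene pairs and 132 of a gene with a marker list.

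Pairs with the receptors Cxcr4, Ackr3, Cxcr3 and Ccr1 did not pass the adjusted threshold over the 8 tumours. For Cxcl12, r was -0.087 with Cxcr4 (exact permutation p = 0.855, adjusted 0.930) and 0.104 with Ackr3 (exact permutation p = 0.810, adjusted 0.929), with rho of -0.071 and -0.095. For Cxcl9, r was 0.650 with Cxcr3 (exact permutation p = 0.0820, adjusted 0.335) and rho 0.738 (exact permutation p = 0.0458, adjusted 0.250). With the model means taken out, r was 0.880 for this pair. For Ccl9 and Ccr1, r was 0.458 (exact permutation p = 0.253, adjusted 0.572) and rho 0.476, and r turned to -0.305 with the model means taken out. Other Ccr1 ligands gave r of -0.197 for Ccl3 (exact permutation p = 0.661, adjusted 0.904) and -0.240 for Ccl6 (exact permutation p = 0.555, adjusted 0.841). Their rho values were 0.143 and -0.405. With the model means taken out, r was -0.311 for Ccl3 and -0.606 for Ccl6. For Cxcl12 it was then -0.216 with Cxcr4 and 0.047 with Ackr3. With Cre:lox OS tumour 4 far from the other 7 in Cxcl5, Cxcl13 and Cxcr2, no pooled r is given for these genes. The same holds for Ccl5 and Cxcl10, in which shRNA OS tumour 1 and Cre:lox OS tumour 4 lay apart, and for the osteoblast marker mean, in which Cre:lox OS tumours 3 and 4 did. The largest gap between neighbouring tumours was 0.51 of the range for the osteoblast mean and 0.28 for the macrophage mean. Of the 147 relations 16 passed the adjusted threshold in r. They include the pooled relations of Ccl2, Ccl7, Ccl12 and Ccr2 with the osteoblast mean, all below 0. As Cre:lox OS tumours 3 and 4 lay apart in that mean, no trend over the 8 tumours is read from these. They also include Ccl5 with the T and NK cell mean, for which r was 0.979 without the 2 tumours farthest from the median of Ccl5.

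Several of the same genes followed the macrophage markers from tumour to tumour. With the mean of the 13 markers, r was 0.970 for Ccl7 (exact permutation p = 0.000174, adjusted 0.00729), 0.975 for Ccl12 (exact permutation p = 0.000149, adjusted 0.00729) and 0.965 for Cxcl16 (exact permutation p = 0.000620, adjusted 0.0114). It was 0.926 for Ccr2 (adjusted exact permutation p = 0.0225), 0.908 for Ccl2 (0.0331), 0.903 for Cxcr4 (0.0433) and 0.886 for Cxcl14 (0.0331). The rho values of these 7 genes ran from 0.881 for Ccl2 to 0.952 for Ccl7, Ccl12 and Cxcr4. Without the 2 farthest tumours r ran from 0.808 for Cxcl14 to 0.991 for Cxcl16. Ackr3, Ccl9 and Ccr1, which also had lower means in shRNA OS, gave 0.524, 0.374 and 0.302. Their adjusted exact permutation p-values were 0.503, 0.654 and 0.727. For these 3 genes r depended on the tumours used. It was 0.902, 0.607 and 0.746 without the 2 farthest tumours, and 0.150, -0.166 and -0.116 with the model means taken out. Cxcr3 followed the 13 T and NK cell markers instead, with r of 0.926 (exact permutation p = 0.00184, adjusted 0.0225) and rho of 0.929. Cxcl9 gave r of 0.738 with these markers (exact permutation p = 0.0372, adjusted 0.204) and rho of 0.905 (exact permutation p = 0.00456, adjusted 0.0447), with r of 0.907 after the model means were taken out and 0.636 without the 2 farthest tumours. The levels of those markers were low, with a mean between 5.89 and 6.48. All points in a relation share their 8 arrays.

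**Figure D4:**
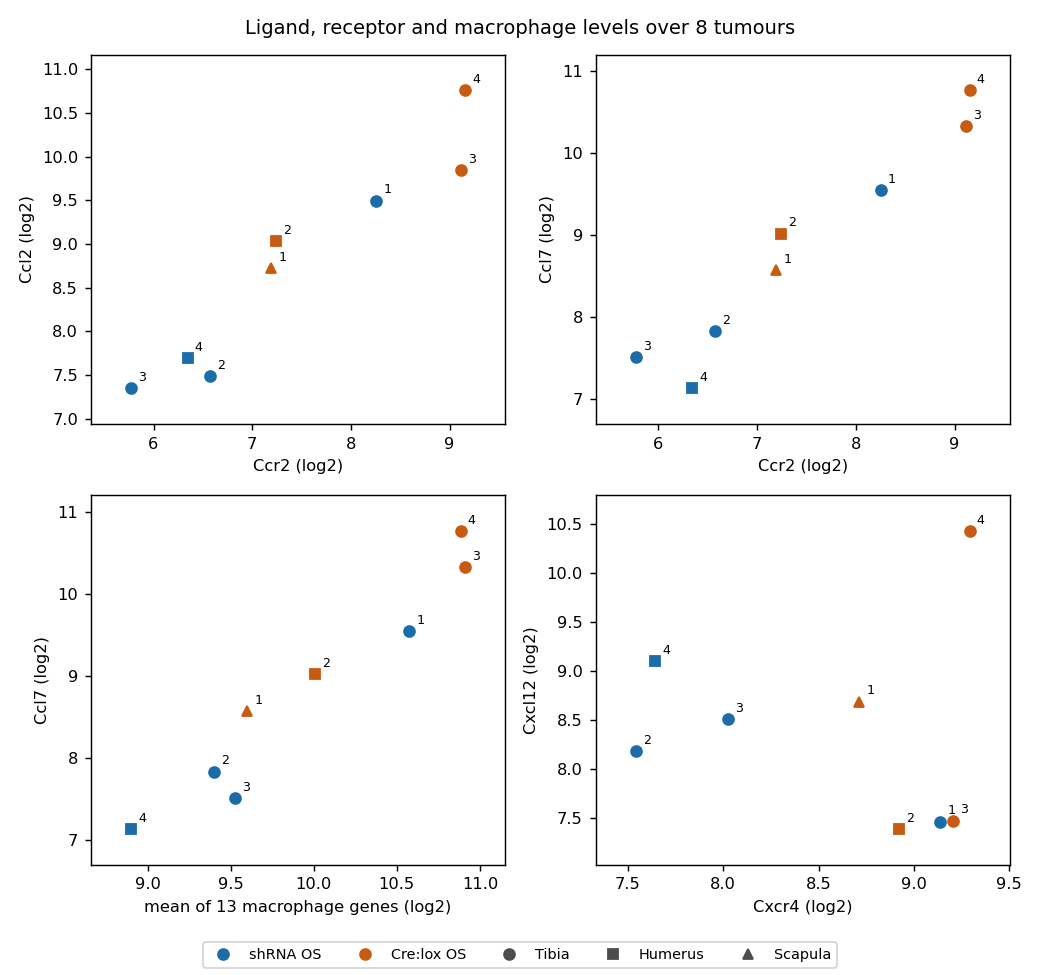
Log2 values over the 8 tumours (points, coloured by model, shaped by bone site, numbered by replicate): Ccl2 and Ccl7 against Ccr2, Ccl7 against the mean of 13 macrophage markers, and Cxcl12 against Cxcr4. The first 3 rise together with r of 0.958, 0.969 and 0.970, and the last has r of -0.087.

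The rest of the chemokine system showed few differences, and no gene of it passed the adjusted threshold in either comparison. Of the other ligands 10 of 12 were measured. Their smallest p between models was that of the platelet chemokine Ppbp (-0.79, SE 0.23, limma adjusted p = 0.307), and between sites that of Pf4, also of platelets and macrophages (1.11, SE 0.46, limma adjusted p = 0.845). Of the other receptors 15 of 16 were measured. Between models 12 of them had a higher mean in shRNA OS and 3 a lower mean (median 0.12), when 48.1% of all genes had a lower mean. Of the 7 receptors above, 6 had a lower mean. The mean level of these 15 was low, between 6.35 and 6.72 in each tumour and below the array medians. Ackr4, a scavenger of Ccl19, Ccl21 and Ccl25, was higher in shRNA OS, against the direction of Ackr3. Its values were 8.16, 8.86, 8.75 and 8.74 in shRNA OS and 7.45, 7.40, 7.05 and 7.70 in Cre:lox OS, without overlap, and the difference was 1.23 (SE 0.20, limma adjusted p = 0.0977). Cx3cr1, the fractalkine receptor of monocytes and macrophages, led between sites with 1.72 (SE 0.45, limma adjusted p = 0.672).

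Among 19 measured genes of chemokine receptor signalling, 13 had a lower mean in shRNA OS (median -0.18), when 48.1% of all genes did. Pik3r5 had the smallest p between models (-0.71, limma adjusted p = 0.308) and Pik3cg, its catalytic partner in leukocytes, between sites (1.09, limma adjusted p = 0.639). Among 22 measured inducers of chemokines, cytokines and transcription factors, 16 had a lower mean in shRNA OS (median -0.24), against the same 48.1%. They were led by Nfkb2 (-0.50, limma adjusted p = 0.431) between models and by the macrophage factor Irf8 (0.86, limma adjusted p = 0.813) between sites.

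Of the remaining cell type lists none had a gene past the adjusted threshold. Between models and between sites the smallest p-values belonged to Msr1 and C1qc (macrophage), Ly6g and Mmp9 (neutrophil), Klrb1c and Cd4 (T and NK cell), Clec9a and Dpp4 (dendritic cell), Tek and Vwf (endothelial), and Oscar and Ocstamp (osteoclast). They belonged to S100a4 and Lum for fibroblasts, Itga2b and Alas2 for erythroid cells and platelets, and, in both comparisons, to Cd79b for B cells, Dlx5 for osteoblasts and Myl1 for skeletal muscle. The matrix gene Lum differed by 2.78 between sites (limma adjusted p = 0.104) and S100a4 by -1.37 between models (limma adjusted p = 0.150). Skeletal muscle markers ran from 7.36 to 10.63 and were highest in shRNA OS tumour 3 and Cre:lox OS tumours 1 and 3.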

How the data were processed

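Per the submitters' processing notes, the authors computed the deposited log2 expression values with RMA (robust multi-array average) and list mm9 as genome build. RMA settings and filters are not stated. Per the labels, RNA was extracted with Trizol and RNeasy columns. Of 35556 probe sets 21789 carried 1 gene symbol, 1621 several and 12146 no listed gene. Those with 1 symbol, at the highest mean per gene, gave 19938 genes. The arrays differed in interquartile range, from 2.59 to 3.19, which can enter every comparison.

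Models (4 against 4, no covariate) and sites (5 against 3, model as covariate) were compared over all genes in R 4.3.3 by limma (version 3.58.1, functions lmFit and eBayes), with Benjamini-Hochberg adjustment, a threshold of 0.05 and no filter. The script was tested on simulated data. Folds are 2 to the power of the log2 difference. Replicates were numbered in accession order. No 2 arrays were identical, and nothing states whether tumours of a group came from separate animals, so p-values measure the spread between these samples. Relations used 40320 permutations. RefSeq promoters (GRCm38.p6) were matched by symbol and are of another build than mm9. Named were all 33 genes and, of each further list, those past the threshold or, failing that, the gene of smallest p in each comparison. The members and all lists were chosen with earlier results of these data known. Alternatives were 2 scalings, 2 filters on dim genes, averaged probe sets, eBayes with trend and robust, array weights, covariates, Rbfl/+ or tibial tumours only, and leaving out each tumour.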

Additional observations from a re-analysis of the deposited data

Results flagged for a closer look

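Within a model of 4 tumours, a tumour was marked when its gap to the nearest other was above 0.829 of the whole range (Dixon's 95% critical value). This was so in 7 of 66 tests of a gene in a model. Chance marks about 1 in 20, and over all genes 7.1% were marked in shRNA OS and 5.5% in Cre:lox OS. shRNA OS tumour 1 was marked above the other 3 for Ccl2 (9.50, others 7.35 to 7.69) and Ccl12 (7.75, others 6.06 to 6.32). It was also marked for Cxcl2 (5.68, others 5.25 to 5.29). The humeral shRNA OS tumour 4 was marked below the others for Ccl9 (8.66, others 9.03 to 9.07). Cre:lox OS tumour 3 was marked above the others for Cxcl1 (7.44, others 7.11 to 7.15) and Cxcl2 (6.46, others 5.41 to 5.56). Cre:lox OS tumour 4 was so for Cxcl5 (7.81, others 5.14 to 5.55). The rule is relative to the range, so small gaps were marked too, as for Cxcl1, Ccl9 and, in shRNA OS, Cxcl2. A test of whether the model difference depends on site rests on single tumours, and none of the 33 genes was marked by it: the smallest limma p was 0.135 and the smallest adjusted p 1.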

How the results depend on the processing

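No paired analysis was possible because the labels give no replicate numbers shared between groups. The count of members past the adjusted threshold was 0 in both comparisons under every alternative run, 19 for models and 18 for sites. With each tumour left out in turn, the members lower in shRNA OS at an unadjusted p under 0.05 numbered 5 to 12, against 9, and those higher in tibial tumours 3 to 7, against 5. The latter count was 0 without the covariate and 3 among the 16 members above the median level, where fewer genes were tested; the cause of the first was not tested. The median difference stayed below 0 for models (-0.57 to -0.23 with a tumour left out) and above 0 for sites (0.15 to 0.49). No member with an adjusted p under 0.05 existed to be lost, so these counts say nothing on that threshold. Of single members, 11 changed sign between models under some alternative, with differences of up to 0.20 in size, and 14 between sites, of up to 0.82 (Cxcl13, without Cre:lox OS tumour 4). Among all genes the number called between models ran from 0 to 42, the latter without shRNA OS tumour 1. Other scalings shifted the median model difference of all genes by at most 0.03. Signal over background, and thus what dim probe sets can show, was not analysed here.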
